A study of Mus musculus with 2 samples.

Results

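The genes described here make and load major histocompatibility complex (MHC) class II, the cell surface molecule that shows peptides to CD4+ T cells. They are H2-Aa, H2-Ab1, H2-Eb1, H2-DMa, H2-DMb1, Cd74 and Ciita, taken by gene symbol, and all 7 were found among 55450 named genes, of which 21938 were nuclear-encoded and protein-coding. Their values came from mouse macrophages of strain C57BL/6J, grown from bone marrow and stimulated with Lipid A at 100 ng/ml for 120 min. Lipid A, the membrane anchor of lipopolysaccharide, is the ligand of the receptor Tlr4. RNA was isolated from the nucleoplasmic fraction of these cells, which another field of the labels calls the nucleus, and was sequenced after depletion of ribosomal RNA. The series held 2 libraries of this 1 group, numbered as biological replicates 1 and 2, from separate biosample entries that name the same donor entry. They were made from 1 µg of RNA for replicate 1 and from 500 ng for replicate 2. No unstimulated or cytoplasmic library was analysed here, so the levels below are not changes caused by Lipid A and not shares of a whole cell's RNA.

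A class II molecule is a pair of chains, alpha and beta, that bind a peptide between them. H2-Aa and H2-Ab1 encode the chains of the I-A molecule, and H2-Eb1 encodes the beta chain of the I-E molecule. While the chains are being made, the invariant chain, encoded by Cd74, fills and guards the peptide groove and guides them to endosomes. There proteases cut the invariant chain down, and the H2-DM pair, encoded by H2-DMa and H2-DMb1, exchanges its last fragment for a peptide. Ciita encodes the class II transactivator, which does not bind DNA itself but docks on factors at the X and Y boxes of class II promoters. Class II genes are known as constitutive in B cells and dendritic cells and as inducible by interferon gamma in macrophages.

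The letters of these promoters are shown first, because the X and Y boxes are what the class II chain genes are known to share. Promoters were taken from RefSeq's promoter table for GRCm38.p6 for 4 of the 7 genes, H2-Aa, H2-Eb1, H2-DMb1 and H2-DMa (H2-DMa with several starts). No entry was found for H2-Ab1 and Ciita, and the promoter of Cd74 was not searched. The 250 bases upstream of the RefSeq start were searched on both strands for 3 strings, the Y box core TGATTGG, the X box core AACNGATG and the cAMP response element TGACGTCA. Matches are in capitals. H2-Aa and H2-Eb1 are shown as 2 expressed chain genes, and H2-Eb2, a beta chain gene that was near 0 in these libraries, is shown for comparison. The stretches are chr17:34287824-34288073 on the minus strand, chr17:34305617-34305866 on the plus strand and chr17:34325425-34325674 on the plus strand.
H2-Aa: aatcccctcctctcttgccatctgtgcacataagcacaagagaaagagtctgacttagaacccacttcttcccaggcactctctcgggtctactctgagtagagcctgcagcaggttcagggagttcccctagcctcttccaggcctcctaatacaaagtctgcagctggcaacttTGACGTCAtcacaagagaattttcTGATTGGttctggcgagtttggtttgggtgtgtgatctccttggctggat
H2-Eb1: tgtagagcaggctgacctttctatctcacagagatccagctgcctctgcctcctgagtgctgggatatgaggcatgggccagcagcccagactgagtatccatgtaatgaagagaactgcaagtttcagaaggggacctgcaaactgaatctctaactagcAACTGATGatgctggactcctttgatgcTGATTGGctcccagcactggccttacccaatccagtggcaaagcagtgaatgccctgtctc
H2-Eb2: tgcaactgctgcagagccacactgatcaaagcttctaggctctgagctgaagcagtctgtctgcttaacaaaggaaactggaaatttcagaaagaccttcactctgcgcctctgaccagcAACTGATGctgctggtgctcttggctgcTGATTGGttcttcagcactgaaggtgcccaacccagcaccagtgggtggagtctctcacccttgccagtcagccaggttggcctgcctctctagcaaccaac

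The Y box core began 50 bases upstream of the RefSeq start in H2-Aa, 61 bases in H2-Eb1 and 63 bases in H2-DMb1. The X box core began 89 bases upstream in H2-Eb1 and 92 bases upstream in H2-DMb1. In H2-Aa the X box letters as searched did not occur, and a cAMP response element began 74 bases upstream. H2-DMa had none of the 3 strings upstream of either start that was searched. Its coding transcript H2-DMa-205, described further on, begins at another place, 34135628, and the bases upstream of it were not searched. Among the other class II chain genes, H2-DMb2 and H2-Eb2 held both cores and H2-Oa and H2-Ob the Y box core alone. Over all 32851 promoters of the same table and length, 7.23% held the Y box core, 1.98% the X box core and 1.55% the cAMP response element. A match describes letters in the reference genome and is not evidence of binding. H2-Eb1 and H2-Eb2 held the same pair of cores in the same order, and their levels differed widely, as given below.

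All 7 class II presentation genes were detected in both libraries, at levels from the lower to the upper part of the detected range. Levels are given as TPM, the usual abundance per transcript length, which divides estimated read counts by effective transcript length and scales each table to 1 total. Every one of the 7 reached 1 TPM or more in both replicates, a level that 40.5% of nuclear-encoded protein-coding genes reached. Together they held 1822 counts in replicate 1, 0.0127% of the library (95% Wilson interval 0.0121% to 0.0133%), and 2430 counts in replicate 2, 0.0148% (0.0143% to 0.0154%). The intervals cover counting error only, and they do not overlap. The median of the 7 was 14.73 TPM in replicate 1 and 14.21 TPM in replicate 2, and the median of all detected protein-coding genes was 10.7 and 7.35 TPM. Among detected protein-coding genes the 7 lay between the 16.5th and the 83.0th percentile in replicate 1 and between the 17.3th and the 91.9th in replicate 2.

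The libraries held 14374739 counts in replicate 1 and 16372797 in replicate 2, and stood apart from each other in several respects. Mitochondrial genes took 0.424% of counts in replicate 1 and 8.70% in replicate 2. A list of 8 macrophage markers was detected in full, at 1008 and 2252 TPM summed in replicates 1 and 2, from Lyz2 (403 and 1316 TPM) down to Itgam (11.2 and 20.9 TPM). Stromal markers held 4753 counts in replicate 1 and 24 in replicate 2, with Col1a1 at 1845 and 8 counts (highest by mean TPM) and Pdgfrb at 30 and 9 counts (lowest by mean TPM). The listed markers of B cells, dendritic cells and T cells were below 10 TPM with the exception of Cd86. Of 8 B cell markers 1 reached 1 TPM in both libraries (Cd22, 2.13 and 2.40 TPM), their summed level was 3.97 and 2.88 TPM, and Cd79a, Ebf1, Pax5 and Blk were at 0 in at least 1 library, Blk being lowest with 0 and 1 count. Of 10 dendritic cell markers 3 reached 1 TPM in both, with 160 TPM summed in replicate 1 and 81.5 TPM in replicate 2. Cd86, which activated macrophages also express, made up 141 and 76.3 TPM of this. Batf3 (9.01 and 1.91 TPM) and Itgax (4.79 and 1.31 TPM) were the other two, and Cd209a, the lowest, was at 0 in both. Of 6 T cell markers 1 did so (Lck, 4.74 and 5.24 TPM), with 4.95 and 5.29 TPM summed and with Cd3e and Cd3g at 0 in both. These marker values are those of the gene table, and the read-based table gave more for some, with 280 and 142 counts for Ebf1 and 307 and 485 counts for Cd3d in replicates 1 and 2. Fewer cells of a type and less RNA per cell cannot be told apart in such bulk samples.

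**Figure D1:**
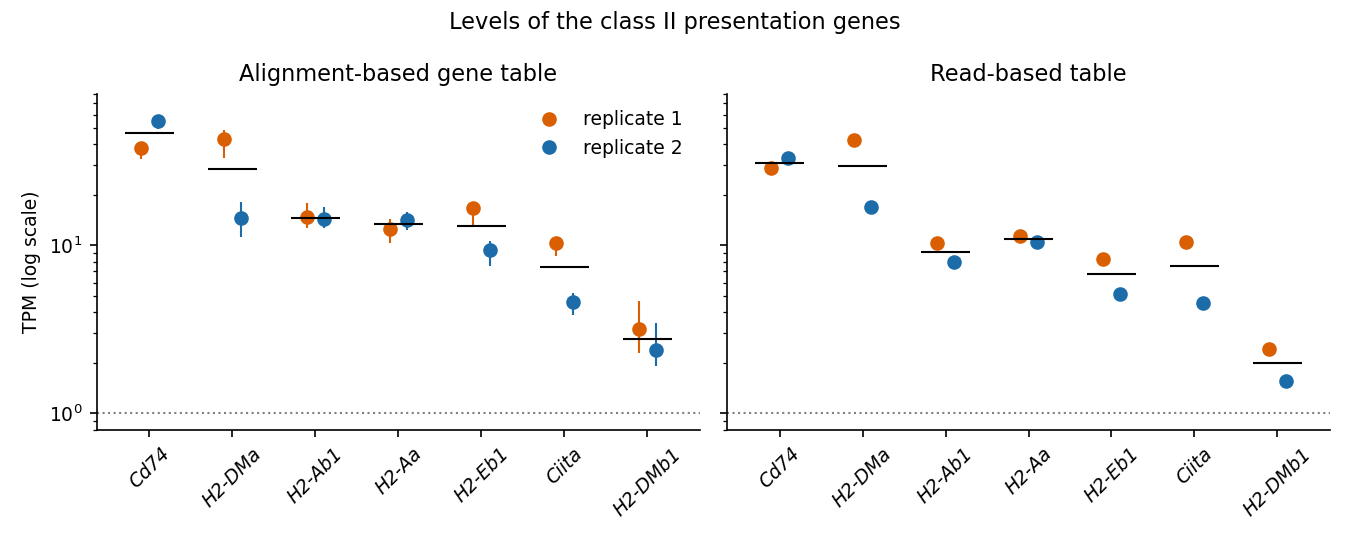
Level of each class II presentation gene in TPM (log axis) in replicate 1 (orange) and replicate 2 (blue), in the alignment-based gene table on the left and the read-based table on the right. Black lines are means, thin vertical lines are the deposited credibility intervals of the gene table, and the dotted line is the detection limit of 1 TPM, which all 7 genes exceed.

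Cd74 (chromosome 18, 60803848 to 60812652, plus strand, mm10) had the highest mean. It held 530 counts and 38.0 TPM in replicate 1, and 1217 counts and 54.61 TPM in replicate 2. Its mean was 46.3 ± 11.7 TPM (SD, n = 2). The deposited credibility intervals, 32.4 to 39.2 TPM in replicate 1 and 49.1 to 55.2 TPM in replicate 2, did not overlap. Cd74 alone made up 29.1% of the counts of the 7 genes in replicate 1 and 50.1% in replicate 2. Its level stood at the 80.7th percentile of detected protein-coding genes in replicate 1 and at the 91.9th in replicate 2.

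The I-A chains were the most even pair. H2-Ab1 (chromosome 17, 34257689 to 34269419, plus strand) had 173 counts and 14.73 TPM in replicate 1, and 273 counts and 14.39 TPM in replicate 2, a mean of 14.56 ± 0.24 TPM (SD, n = 2). H2-Aa (chromosome 17, 34282744 to 34287823, minus strand) had 198 counts and 12.59 TPM in replicate 1, and 288 counts and 14.21 TPM in replicate 2, a mean of 13.4 ± 1.15 TPM (SD, n = 2). The means of the alpha and the beta chain thus differed by 1.16 TPM, about 1 SD of H2-Aa. H2-Eb1 (chromosome 17, 34305867 to 34316674, plus strand) varied more, with 173 counts and 16.75 TPM in replicate 1 and 181 counts and 9.33 TPM in replicate 2, a mean of 13.04 ± 5.25 TPM (SD, n = 2). Its mean lay 0.36 TPM below that of H2-Aa, far within that spread. The coding transcripts of H2-Eb1 alone held 0.36 and 2.91 TPM in replicates 1 and 2, against 11.08 and 13.91 TPM for those of H2-Aa. In the read-based table the coding transcripts held 4.72 and 3.81 TPM for H2-Eb1, and 5.15 and 8.11 TPM for H2-Aa.

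The peptide exchange pair was uneven. H2-DMa (chromosome 17, 34119541 to 34139101, plus strand) had 207 counts and 42.74 TPM in replicate 1, and 137 counts and 14.50 TPM in replicate 2, a mean of 28.6 ± 20.0 TPM (SD, n = 2), the widest spread of the 7. It ranked highest of the 7 in replicate 1 and stood below Cd74 in replicate 2. H2-DMb1 (chromosome 17, 34153072 to 34160230, plus strand) was lowest in both, with 45 counts and 3.19 TPM in replicate 1 and 59.9 counts and 2.38 TPM in replicate 2, a mean of 2.79 ± 0.573 TPM (SD, n = 2). Most of the H2-DMa level came from noncoding transcripts described further on, and its coding transcripts alone held 5.58 and 2.77 TPM in replicates 1 and 2. On the coding transcripts the alpha chain H2-DMa and the beta chain H2-DMb1 (2.52 and 2.38 TPM) were therefore much closer than on the gene level.

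Ciita (chromosome 16, 10480059 to 10528418, plus strand) had 496 counts and 10.28 TPM in replicate 1, and 274 counts and 4.60 TPM in replicate 2, a mean of 7.44 ± 4.02 TPM (SD, n = 2). Its credibility intervals, 8.62 to 10.9 TPM and 3.84 to 5.21 TPM, did not overlap. Ciita is the longest of the 7 genes, spanning 48360 bp. In replicate 1 it held nearly as many counts as Cd74 at a much lower TPM. TPM divides by effective transcript length, which in replicate 1 was 5790 bases for Ciita-201 and 1007 bases for Cd74-201. Ciita was the sixth of the 7 in both libraries. Between neighbours in the order of mean TPM, the gaps from Cd74 to H2-DMa, from H2-DMa to H2-Ab1 and from H2-Aa to H2-Eb1 were smaller than the larger of the 2 SDs. The remaining gaps were 1.01 to 1.16 times it, so with 2 libraries no neighbouring means stood clearly apart by this measure. Within each library the intervals of Ciita overlapped neither those of H2-Eb1 (13.0 to 18.0 and 7.49 to 10.7 TPM) nor those of H2-DMb1 (2.30 to 4.66 and 1.93 to 3.46 TPM). In the read-based table Ciita was above H2-DMb1 in both libraries, but also above H2-Eb1 in replicate 1 (10.5 and 8.33 TPM).

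A further transcript table, made by the authors from the read files, gave the same picture of the levels with some exchanges of order. In it Cd74 had 28.8 and 33.2 TPM in replicates 1 and 2, H2-DMa 42.2 and 16.98 TPM, and Ciita 10.5 and 4.55 TPM. H2-Aa had 11.4 and 10.5 TPM, H2-Ab1 10.3 and 7.99 TPM, H2-Eb1 8.33 and 5.14 TPM, and H2-DMb1 2.41 and 1.57 TPM. The read-based table gave H2-Aa 2.99 and 2.38 times the counts of the gene table in replicates 1 and 2, and H2-DMa 2.00 and 2.65 times. For the other 5 genes the factor lay between 1.27 and 1.89. The excess for H2-Aa lay mainly in 1 retained-intron transcript, as described with the isoforms.

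TPM values were on the whole lower in replicate 2, so the 7 genes were set against that general shift. The ratio used is the log2 of TPM + 1 of replicate 2 divided by TPM + 1 of replicate 1. From it was subtracted the median over all genes whose mean reached 1 TPM, which was -0.58. Adding 1 makes the differences of low genes look smaller than they are. Relative to that shift, 4 of the 7 genes were higher in replicate 2 (Cd74, H2-Aa, H2-Ab1 and H2-DMb1) and 3 were lower, against 55.7% of protein-coding genes higher. The ratio was 1.09 for Cd74, 0.75 for H2-Aa, 0.55 for H2-Ab1 and 0.27 for H2-DMb1. It was -0.20 for H2-Eb1, -0.43 for Ciita and -0.91 for H2-DMa. Under TMM scaling of the counts Ciita was at -0.81 and H2-DMa at -0.55. The sign for H2-Eb1 turned to 0.10 under TMM scaling, 0.09 under DESeq2 size factors and 0.02 in the read-based table, where the values were 0.83 for Cd74 and -0.64 for H2-DMa. Without subtracting the shift, Cd74 and H2-Aa alone of the 7 were higher in replicate 2. Cd74 was the 1 gene of 7 past an absolute value of 1, a size that 7.17% of protein-coding genes passed, and in the read-based table none of the 7 passed. The median ratio of the 7 genes was 0.27, and that of all protein-coding genes 0.06.

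**Figure D2:**
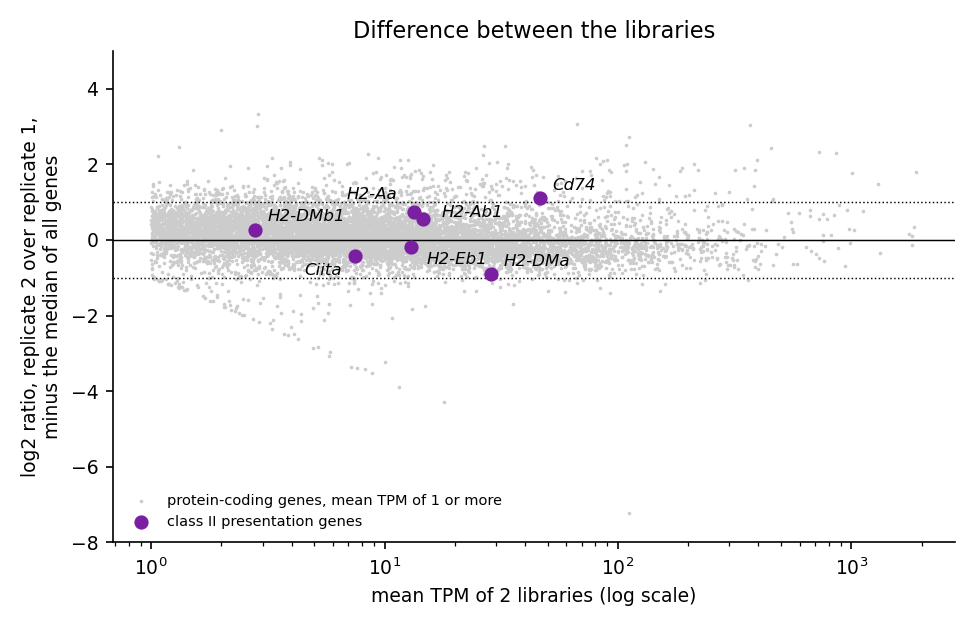
Relative log2 ratio of replicate 2 over replicate 1 against the mean TPM of the libraries (log axis) for protein-coding genes whose mean reached 1 TPM (grey) and the class II presentation genes (purple). Dotted lines mark 1 and -1, which 7.17% of the grey genes pass, and Cd74 at 1.09 and H2-DMa at -0.91 are the members farthest from 0 on each side.

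Cd74 was not alone among genes of the endosomal route in being higher in replicate 2. The list of enzymes that cut the invariant chain or the antigens was higher in replicate 2 for 7 of 7 genes, with a median ratio of 1.77 (6 of 7 and 1.19 without subtracting the shift) and summed levels of 1441 TPM (replicate 1) and 3468 TPM (replicate 2). Ctsb, a cysteine protease, had 613 and 1399 TPM in replicates 1 and 2. Ctsd, an aspartic protease, had 337 and 1123 TPM. Ctss, the protease known for the late cuts of the invariant chain, had 188 and 450 TPM. Ifi30, the thiol reductase that unfolds antigens, was lowest with 2.88 and 4.75 TPM. Macrophage markers had a median ratio of 1.55, with 8 of 8 higher (7 in the read-based table and 6 without subtracting the shift). Beside these counts, 55.7% of all protein-coding genes whose mean reached 1 TPM were higher in replicate 2 relative to the shift. Mitochondrial RNA was higher in the same library and the stromal markers summed to 76.1 TPM in replicate 1 and 0.32 TPM in replicate 2. The part of these differences between the libraries in the ratio of Cd74 was not tested.

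Genes that act upstream of Ciita were on the other side. Of 8 known regulators of Ciita 7 reached 1 TPM in both libraries, and all 7 whose mean reached 1 TPM were lower in replicate 2 relative to the general shift, with a median ratio of -0.52, beside -0.43 for Ciita itself (-0.39 and -0.81 under TMM scaling). They were also lower under each other scaling tried and in the read-based table. Irf1, the interferon-induced factor that acts on the last of the Ciita promoters, had 818 and 352 TPM in replicates 1 and 2. Irf8, a myeloid lineage factor, had 327 and 152 TPM. Irf4 was lowest, with 1.27 and 0.72 TPM. Prdm1 (-0.60) and Bcl6 (-0.17) were also among the 7 lower genes. The list was not divided into activators and repressors of Ciita. Its common direction therefore does not say in which direction Ciita would be driven. Of all protein-coding genes that passed the same limit, 55.7% were higher in replicate 2 relative to the shift. The listed factors act on many genes, and their levels do not measure their activity at Ciita.

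Genes of the interferon gamma pathway were detected with the exception of the ligand. Of 8 genes 7 reached 1 TPM in both libraries. Jak2, a kinase bound to the interferon gamma receptor, had 197 and 130 TPM in replicates 1 and 2. The ligand Ifng itself had 0 counts in replicate 1, which allows up to 3 counts, and 1 count in replicate 2. The list was divided in direction, with 3 genes higher and 4 lower in replicate 2 and a median ratio of -0.01, which turned to 0.02 under TMM scaling and to 0.06 in the read-based table.

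Of the factors that bind the X and Y boxes, 6 of 7 reached 1 TPM in both libraries, with a median ratio of -0.03 that turned to 0.08 in the read-based table. Nfya, a subunit of the Y box factor NF-Y, had 53.3 and 29.4 TPM in replicates 1 and 2, and Creb1, which binds the cAMP response element, had 49.0 and 31.7 TPM. Rfx5, the large subunit of the X box factor RFX, had 12.2 and 4.83 TPM. Another subunit of RFX, Rfxank, was lowest with 1.43 and 0.90 TPM. The mean level of Ciita, which docks on these factors, lay between those of Rfx5 and Rfxank.

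Genes that set how long class II stays on the surface were all detected (3 of 3 matched), with a median ratio of 0.18 that turned to -0.10 in the read-based table and -0.40 without subtracting the shift. Cd83, which protects class II from removal, had 92.5 and 87.7 TPM in replicates 1 and 2. March8 had 17.04 and 11.8 TPM and March1 13.9 and 10.3 TPM. March1 and March8 encode ubiquitin ligases, and March1 is the one known to send class II to lysosomes in resting antigen-presenting cells.

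The remaining class II chain genes were at low levels in the gene table, and 0 of 5 reached 1 TPM in both libraries. H2-Oa and H2-Ob encode the chains of H2-DO, an inhibitor of the exchange by H2-DM that is best known from B cells. H2-Ob had 12 and 8 counts (0.64 and 0.26 TPM) and H2-Oa 11 and 2 counts (0.72 and 0.10 TPM) in replicates 1 and 2. H2-DMb2, a close relative of H2-DMb1, had 3 and 3.1 counts, and H2-Eb2 had 4 and 0 counts. H2-Ea-ps, the pseudogene that C57BL/6J mice carry in place of a working I-E alpha gene, had 0 counts in both, which allows up to 3 counts. H2-Eb1, at a mean of 13.04 TPM, thus had no detected alpha chain partner. The low level of H2-Ob was not found in the read-based table, which gave it 163 and 132 counts and 6.21 and 2.89 TPM in replicates 1 and 2.

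The class II region of chromosome 17 allows neighbouring genes to be set side by side. Between H2-Oa and H2-Eb2, inclusive, lie 249073 bp with 14 protein-coding genes. The 9 class II chain genes ranged from 0.045 to 28.6 TPM in the mean of both libraries, with a median of 2.79 TPM, and 5 reached 1 TPM in both. The other 5 genes all reached it and ranged from 45.1 to 235 TPM. They were Brd2, a chromatin reader, with 286 and 183 TPM in replicates 1 and 2, the peptide transporter genes Tap1 (187 and 109 TPM) and Tap2 (62.6 and 28.5 TPM), and the immunoproteasome genes Psmb8 (61.6 and 38.7 TPM) and Psmb9 (52.9 and 37.4 TPM). Tap and Psmb genes serve class I presentation. These 4 genes lie between the H2-DM genes and the I-A and I-E genes, and in the gene table each of them was at a higher TPM than every class II chain gene within each library. In the read-based table Psmb8, at 37.2 TPM in replicate 1, was below H2-DMa at 42.2 TPM. The next protein-coding genes outside were Col11a2 (4.52 and 1.30 TPM), a collagen, and Btnl2 (0.09 and 0 TPM). Btnl2, a butyrophilin-like gene, had 3 and 0 counts in the gene table and 550 and 389 counts in the read-based table.

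**Figure D3:**
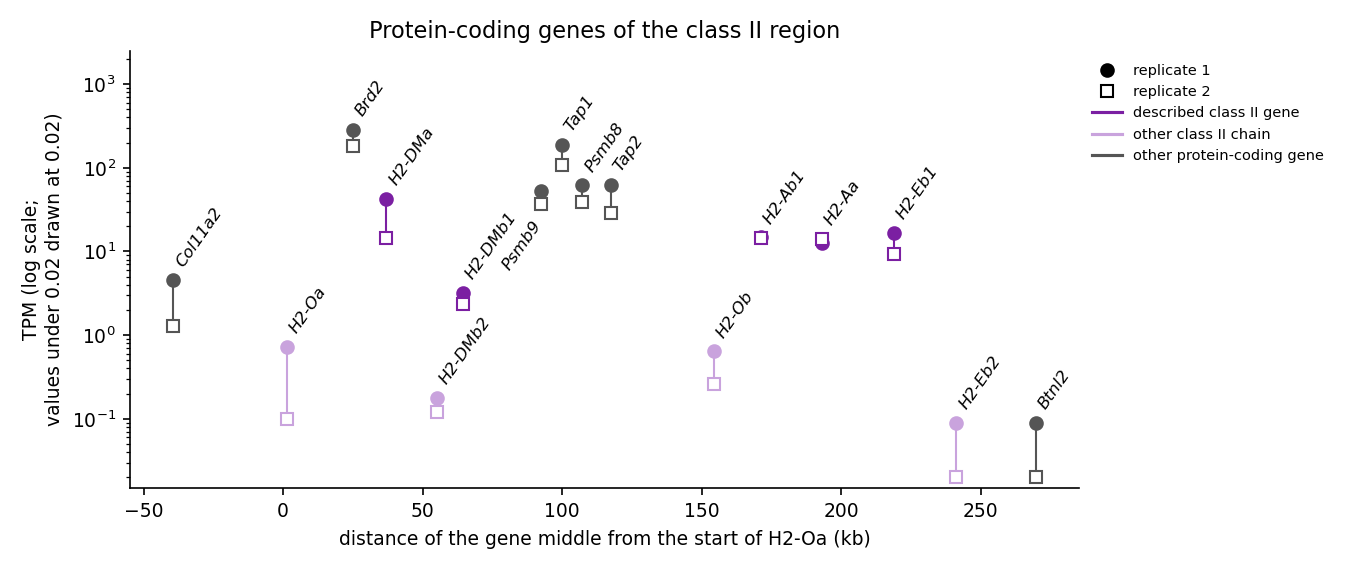
Level in TPM (log axis) of the protein-coding genes of the class II region against distance from the start of H2-Oa in kb, with replicate 1 as filled circles and replicate 2 as open squares. The 5 genes other than class II chains (dark grey, inside the region) lie above all class II chain genes (purple and light purple) within each library of the gene table, and H2-Oa, H2-DMb2, H2-Ob and H2-Eb2 lie below 1 TPM.

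Nuclear RNA holds unspliced and partly spliced molecules, and the annotated transcripts of each gene were therefore compared. The 7 genes have 41 annotated transcripts, of which 20 are protein-coding, 12 are retained-intron, 8 are processed transcripts without a reading frame and 1 is a target of nonsense-mediated decay (NMD). In the alignment-based transcript table, protein-coding transcripts held at least 50% of the TPM in both libraries for 5 of the 7 genes (Cd74, Ciita, H2-Aa, H2-Ab1 and H2-DMb1). In the read-based table it was also 5, with H2-Eb1 in place of H2-Aa. The coding transcripts of Ciita include Ciita-204, with 25.1% and 47.4% of its TPM in replicates 1 and 2 in the alignment-based table. The second exon of Ciita-204 lies in an intron of the longer transcripts, as described below. The coding majority of Ciita in the alignment-based table rests on counting this transcript. The 3788 protein-coding genes with a retained-intron transcript and at least 5 TPM in both were scored in each library alone. Of them, 52.2% in replicate 1 and 61.3% in replicate 2 had a coding majority in the alignment-based table, and 36.4% and 46.6% in the read-based table. How many had it in both libraries was not counted. H2-DMb1 and Ciita, at 2.38 and 4.60 TPM in replicate 2, are below that limit of 5 TPM. The share was 90.0% and 98.4% for Cd74 in replicates 1 and 2, 88.0% and 98.0% for H2-Aa, 79.0% and 100% for H2-DMb1, 64.6% and 82.0% for H2-Ab1, and 70.7% and 78.0% for Ciita. It was 13.1% and 19.1% for H2-DMa and 2.15% and 31.2% for H2-Eb1. The read-based shares were 67.6% and 95.9% for Cd74, 45.3% and 77.0% for H2-Aa, 58.5% and 91.7% for H2-DMb1, 60.0% and 90.0% for H2-Ab1, 81.1% and 85.1% for Ciita, 6.66% and 10.8% for H2-DMa, and 56.6% and 74.2% for H2-Eb1. The tables thus differed most for H2-Eb1, and both put the coding share of H2-DMa below that of the other genes except H2-Eb1 in replicate 1.

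Retained-intron transcripts took a smaller share in replicate 2 than in replicate 1 for 6 of 7 genes, in both tables, with H2-DMa the exception. The alignment-based share was 10.2% in replicate 1 and 2.04% in replicate 2 for H2-Aa, 35.4% and 18.0% for H2-Ab1, 50.4% and 12.8% for H2-Eb1, and 16.8% and 12.0% for Ciita. The read-based share was 32.4% and 4.07% for Cd74, 40.0% and 10.03% for H2-Ab1, 42.5% and 3.54% for H2-Eb1 and 48.4% and 23.0% for H2-Aa. The median of the 7 genes was 16.8% in replicate 1 and 3.93% in replicate 2 in the alignment-based table, and 32.4% and 6.99% in the read-based table. For the same 3788 protein-coding genes the median was 39.3% and 33.0% in the alignment-based table, and 41.6% and 36.6% in the read-based table. The median was thus lower in replicate 2 both for the 7 genes and for the 3788, and the difference was larger for the 7. How many of the 3788 genes had a smaller share in replicate 2 was not counted. The class is that of the annotation, and for Ciita it leaves out Ciita-204, whose second exon lies in an intron of the longer transcripts. The share of Ciita-204 was larger in replicate 2, with 25.1% and 47.4% of TPM in the alignment-based table and 15.1% and 31.5% in the read-based table.

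**Figure D4:**
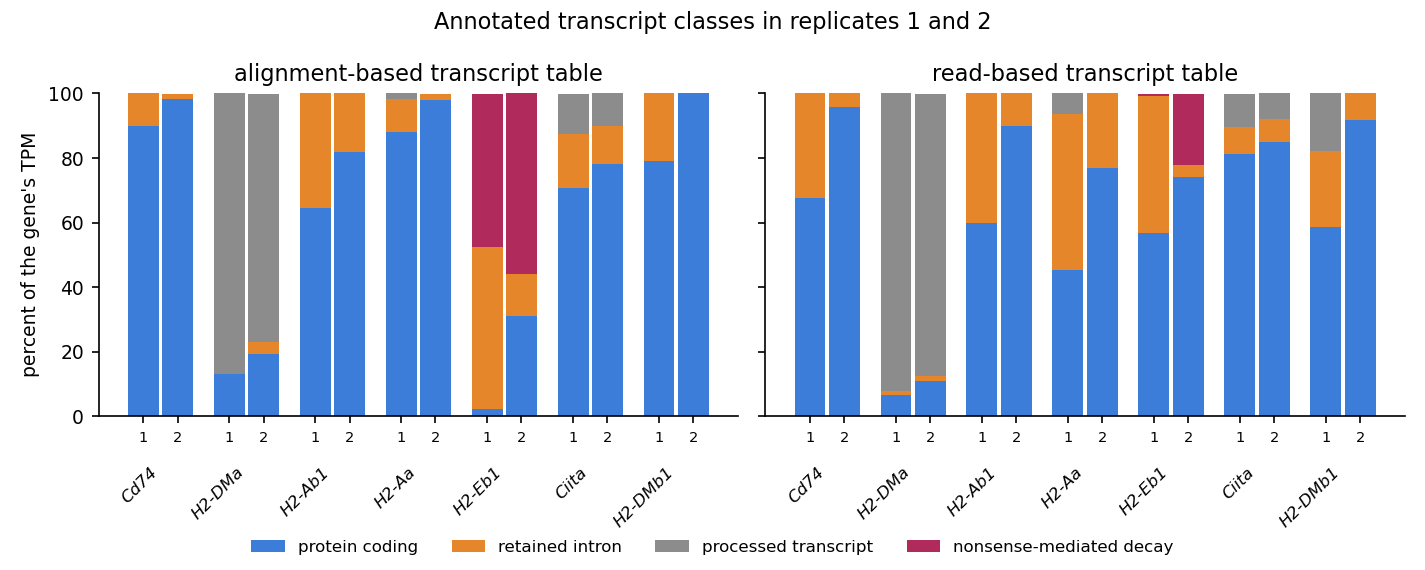
Percent of each gene's TPM held by annotated transcript classes, with replicates 1 and 2 side by side, in the alignment-based table on the left and the read-based table on the right. Orange retained-intron shares are smaller in replicate 2 for all genes but H2-DMa, and the red NMD share of H2-Eb1 differs between the tables.

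For Cd74, 2 coding transcripts carried most of the level, Cd74-201 with 26.83 and 39.01 TPM and Cd74-202 with 7.37 and 14.75 TPM in replicates 1 and 2. Cd74-202 has an extra exon 7 of 192 bases, or 64 codons, at 60811294 to 60811485 of chromosome 18. It is the long form of the invariant chain, whose additional thyroglobulin-type domain is known to inhibit cathepsin L. The long form made up 21.5% of both forms in replicate 1 and 27.4% in replicate 2, a mean of 24.5% ± 4.16 (SD, n = 2). In the read-based table it made up 33.2% and 32.5%, a mean of 32.9% ± 0.453 (SD, n = 2). The short form was thus the larger in both libraries and both tables. A retained-intron transcript, Cd74-205, held 9.32% and 1.28% of TPM in the alignment-based table and 27.3% and 3.19% in the read-based table.

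Ciita has 8 annotated transcripts that begin at 3 places, and all are described here. The starts lie 0, 8119 and 9687 bp from the start of the gene, in the order in which the myeloid, the lymphoid and the interferon gamma-inducible promoters of Ciita are known to lie, but the annotation does not name them so. Transcripts of the first start held 22.9% of TPM in replicate 1 and 12.0% in replicate 2. Those of the second start held 40.1% and 31.1%, and those of the third start 36.9% and 57.0%. By counts the second start led, with 59.7% and 56.4%, and the third start held 18.4% and 30.8%. In the read-based table the third start was again larger in replicate 2, with 51.4% and 62.4% of TPM and 16.6% and 27.6% of counts, and the second start held 60.1% and 60.2% of counts. Both tables and both units thus had a larger share of the third start in replicate 2. In each of them the share of Ciita-204, a transcript of that start described below, was larger in replicate 2. By TPM in the alignment-based table, Ciita-203 (6.80% and 4.78%) and Ciita-208 (5.05% and 4.78%), which also begin there, had smaller shares. In the read-based table Ciita-208 was smaller too (34.4% and 28.8%), and Ciita-203 was slightly larger (1.93% and 2.17%). By TPM the largest start was the second in replicate 1 and the third in replicate 2 in the alignment-based table, and by counts it was the second in both.

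In the alignment-based table most of the TPM of the third start lay in 1 short transcript. Ciita-204, annotated as protein-coding, has only 2 exons, near the third start. It held 51 counts in replicate 1 and 65 counts in replicate 2, with a deposited posterior SD of 0 counts in both. It made up 25.1% and 47.4% of the TPM of Ciita in the alignment-based table and 15.1% and 31.5% in the read-based table. Full-length coding Ciita-203, which also begins there, had 36.7 and 17.2 counts with posterior SDs of 11.9 and 6.31. Ciita-208, a 6-exon transcript from the same start, held 5.05% and 4.78% of TPM in the alignment-based table and 34.4% and 28.8% in the read-based table. The second exon of Ciita-204 lies in an intron of the longer transcripts, and reads of a finished short RNA and of unspliced Ciita RNA there cannot be told apart.

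Most counts of the second start were assigned to Ciita-201, with 232 and 120 counts in replicates 1 and 2 and 27.6% and 21.1% of TPM. It alone holds 1992 bases of the last exon, so reads from there can be assigned to no other annotated transcript, whichever start they came from. Ciita-202, which ends earlier, had 64.3 and 35.0 counts and 1.29 and 0.46 TPM. At the first start the retained-intron transcript Ciita-207 had 73.2 and 35.1 counts, and the coding transcript Ciita-205 had 35.5 and 0 counts with posterior SDs of 12.0 and 3.07. Ciita-206 had 0 counts in both libraries in the alignment-based table and 6.11% and 1.61% of TPM in the read-based table. Posterior SDs of the Ciita transcripts other than Ciita-204 ranged from 1.01 to 14.3 counts in replicate 1 and from 0.82 to 7.64 counts in replicate 2.

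**Figure D5:**
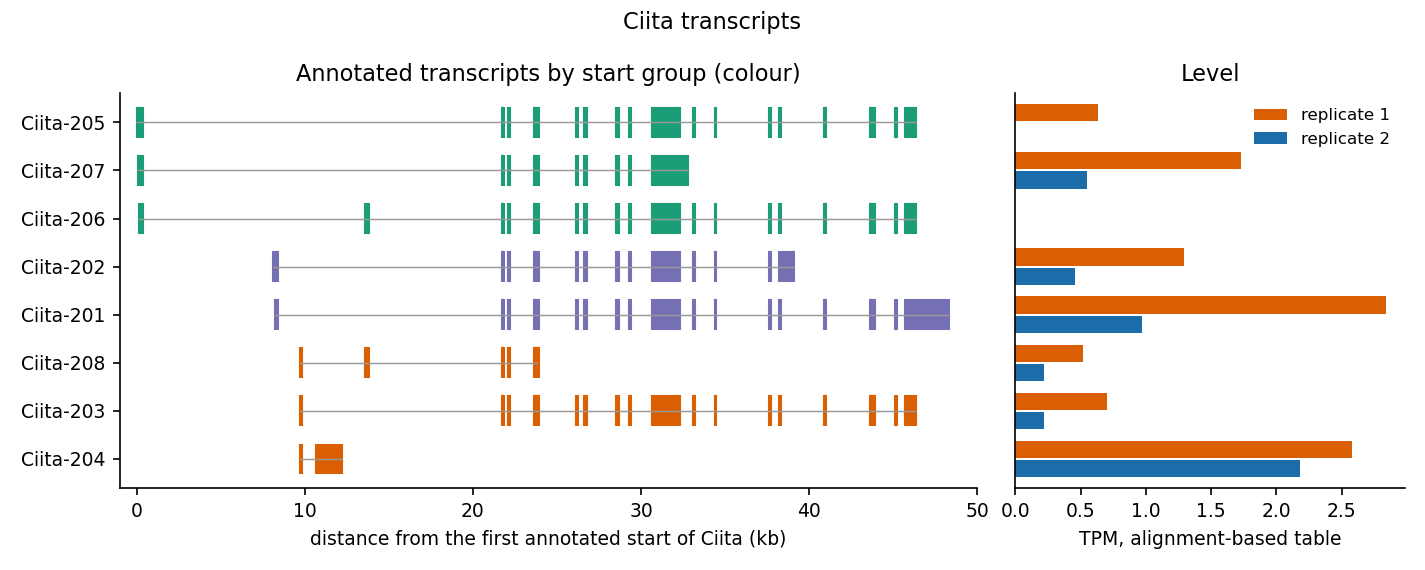
Exons of the annotated Ciita transcripts by distance from the first start in kb (left; colours mark the 3 starts, and exons shorter than 0.1 kb are drawn at 0.1 kb) and their TPM in the alignment-based table (right). Ciita-204, the 2-exon transcript at the third start, has 2.58 and 2.18 TPM in replicates 1 and 2, next to 2.84 and 0.97 TPM for the full-length Ciita-201.

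For H2-DMa, the 350-base processed transcript H2-DMa-203 took 66.5% of TPM in replicate 1 and 45.3% in replicate 2. It held 55.1 and 19.0 counts at an effective length of 138 bases in replicate 1, against 1441 bases for the full-length coding transcript H2-DMa-201, which held 27.3 and 11.2 counts. The difference of H2-DMa between the libraries lay mostly there, with 28.43 and 6.57 TPM for H2-DMa-203 in replicates 1 and 2. A shorter coding transcript, H2-DMa-205, held 8.40% and 14.4% of TPM. H2-DMa-204, a processed transcript, held 6.76% and 7.45% in the alignment-based table and 22.7% and 29.6% in the read-based table. H2-DMa-208 held 13.6% and 24.2%, and 42.2% of its bases lie opposite exons of Brd2, whose level was several times that of H2-DMa. Whether the counting used strand is not given in the sources used here, so within that overlap reads of Brd2 and of H2-DMa-208 cannot be told apart.

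H2-Eb1 was the least certain of the chain genes at the transcript level. The NMD target H2-Eb1-205 held 47.5% and 56.0% of TPM in replicates 1 and 2 in the alignment-based table, but 0.857% and 22.3% in the read-based table. The coding transcript H2-Eb1-203 held 2.15% and 11.5% in the alignment-based table, but 53.2% and 74.2% in the read-based table. The coding transcript H2-Eb1-201 had 0 and 37.2 counts with posterior SDs of 7.71 and 16.2. The retained-intron transcript H2-Eb1-204 held 42.7% and 12.8%, against 23.8% and 3.54% in the read-based table, and H2-Eb1-202, of the same class, held 7.70% and 0%. The gene counts of H2-Eb1, 173 and 181, do not depend on how reads are split among its transcripts, but its TPM does.

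In H2-Aa the coding transcript H2-Aa-201 had 142 and 269 counts, or 88.0% and 98.0% of TPM, in replicates 1 and 2. The retained-intron transcript H2-Aa-203, of 3223 bases, had 54.5 and 18.7 counts in the alignment-based table and 464 and 340 counts in the read-based table. It accounted for most of the surplus of H2-Aa counts in the read-based table. A further coding transcript, H2-Aa-204, had 0 counts in both libraries in the alignment-based table and 10.7% and 7.57% of TPM in the read-based table. In H2-Ab1 the coding transcript H2-Ab1-201 had 133 and 249 counts, or 64.6% and 82.0% of TPM, and its retained-intron transcripts H2-Ab1-203 and H2-Ab1-204 held 8.83% and 12.4%, and 12.1% and 0%. In H2-DMb1 the coding transcript H2-DMb1-201 held 79.0% and 100% of TPM, and 37.6% of its 31-base words also occur in H2-DMb2, so reads could be split between those genes. The retained-intron transcript H2-DMb1-202 held the rest in replicate 1 on 2.87 counts, and the processed H2-DMb1-203 was at 0 in both libraries but held 17.7% and 0% of TPM in the read-based table.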

How the data were processed

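The 7 genes and all gene lists were chosen with earlier results of these data known. The deposited gene and transcript tables rest on an alignment to the transcriptome, and a separate transcript table on the reads, with mm10 and GENCODE M21, per the labels' accompanying notes. The aligner and quantifier were not given in the sources used here. Deposited expected counts are estimated counts with fractions, per the file headers. The deposited TPM and FPKM values are scaled by effective length and total, per the file headers. The deposited percent columns give each transcript's share of its gene's TPM, per the file headers, and the shares printed here were recomputed from TPM. Nuclear protein-coding genes took 72.5% of counts and 29.7% of TPM in replicate 1, and 67.0% and 20.8% in replicate 2. Entries without a gene name, with 1.45% and 0.279% of counts, entered totals but no list.

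Genes were matched by symbol and by gene identifier across tables, and coordinates were taken from the annotation of the same build. The read-based table was summed to genes and held 21039284 and 27514005 counts over all entries. Detection was set at 1 TPM in both libraries. For a transcript of 1 kb the 3 counts that a count of 0 allows equal 0.213 and 0.141 TPM in replicates 1 and 2. With 2 libraries of 1 group there is no test and no p-value, and the SD may be partly technical. The ratio step was tested on simulated data. Named genes are the 7, the 3 highest and the lowest of each pathway list, the highest and lowest of each marker list, protein-coding genes of the class II region with its neighbours, and transcripts with 10% of a gene's TPM in any library or table, besides all of Ciita; 1 gene that this rule names is not reported here. H2-DMa-201, further marker genes and genes counted by direction were named in addition, after their values were seen. The symbol H2-Ea of the list of other chains did not match, and March1 and March8 matched under these older symbols. Scaling factors came from edgeR 4.0.16 and, as an alternative, DESeq2 1.42.0 on rounded expected counts (R 4.3.3). The remaining work was done in Python 3.11.15 with numpy 2.4.6 and pandas 2.3.3, intervals with scipy 1.17.1 and plots with matplotlib 3.10.9.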

Additional observations from a re-analysis of the deposited data

How the results depend on the processing

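All 7 genes stayed detected at 0.5 TPM, at 10 counts, in FPKM, in the read-based table and in each library alone, and 5 at 5 TPM. The number past 1 between the libraries was 1 (Cd74) under TMM scaling, DESeq2 size factors, a pseudocount of 0.1 and FPKM, and 0 in the read-based table. Without a filter on low values, when the general shift is not removed, it was 2 (H2-DMa and Ciita), and over protein-coding transcripts alone, an alternative chosen after seeing the data, 2 (H2-Eb1 and Cd74). The signs of Cd74, H2-Aa, Ciita and H2-DMa held in 7 of 7 alternatives, those of H2-Ab1 and H2-DMb1 in 6 and that of H2-Eb1 in 3, between -0.78 and 1.92. Under DESeq2 size factors Ciita was at -0.83 and H2-DMa at -0.56. The median level of the 7 genes, 13.4 TPM from mean values, was 9.15 TPM in the read-based table, 15.4 in FPKM, 55.3 TPM when rescaled to nuclear-encoded protein-coding genes, 5.43 TPM over protein-coding transcripts alone and between 14.21 and 14.73 TPM in single libraries. The number of genes with a coding majority was 5 in every alternative run. The causes of these differences were not tested. No paired analysis was possible because the 2 libraries form 1 group, and leaving out a library leaves no difference between libraries. H2-DMb1, with 45 counts, and the transcripts below about 50 counts are limited by depth.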

Other observations

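Some noncoding genes of the class II region had very different counts in the gene table and the read-based table. Gm20513, annotated as antisense to H2-Eb1, had 0 counts in both libraries in the gene table, but 1087 and 1083 counts, or 126 and 65.1 TPM, in replicates 1 and 2 in the read-based table, above every class II presentation gene there. CR974462.4, antisense within H2-DMa, had 69 and 32 counts (11.3 and 3.48 TPM) in the gene table and 244 and 150 counts in the read-based table. Gm15821, a long noncoding gene opposite Tap2, had 167 and 156 counts (11.9 and 7.41 TPM) in the gene table and 277 and 342 counts in the read-based table. These genes were chosen after their values were seen.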
